A study of Mus musculus with 6 samples.

Results

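Toll-like receptors are the membrane sensors by which microglia, macrophages and some other cells recognise microbial molecules and material released by damaged cells. The 10 genes described here, Tlr1 to Tlr9 and Tlr13, were taken by gene name from a count table of 53715 genes of the mouse piriform cortex, and all 10 were found. They were read in 2 classes of 5. Tlr3, Tlr7, Tlr8, Tlr9 and Tlr13 encode receptors that sit in endosomes and bind nucleic acids, and Tlr1, Tlr2, Tlr4, Tlr5 and Tlr6 encode receptors of the cell surface that bind lipopeptides, lipopolysaccharide or flagellin. The family was chosen by its measured difference between the 2 groups of libraries, that is, by the CPM and log2 fold changes of the Caspase3 against the GFP libraries. The members' differences, and whether they passed a threshold, are therefore given as a description of these libraries. No p-value is printed for them, and nothing is supported with them.

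The tissue was piriform cortex, a primary olfactory area, of Gad2-Cre mice, in which Cre recombinase is made in cells that express the GABA-synthesising enzyme Gad2. All 6 libraries carry this allele, and all mice had received an adeno-associated virus on 1 side. The Caspase3 group (n = 3 libraries) received AAV-DIO-Caspase3, in which Cre switches on caspase 3, an executioner of apoptosis. The GFP group (n = 3 libraries) received AAV-DIO-GFP, in which Cre switches on a fluorescent protein. Age, time after injection and the side sampled are not given in the labels used here. Whether each library stands for its own animal is not stated either, so a p-value measures the spread between libraries, which may be technical in part. Gad2, the targeted gene, stood at 26.7, 38.5 and 38.0 CPM (counts scaled to library size with TMM factors) in Caspase3 replicates 1, 2 and 3 and at 92.4, 118.0 and 103.7 CPM in the GFP replicates. It was 3.04-fold lower in the Caspase3 group (log2 fold change -1.60 ± 0.15 (SE), adjusted p = 0.00371 in edgeR's quasi-likelihood test). Xist had 1 to 6 counts and the Y-linked Ddx3y 2195 to 3040 counts in every library, a male pattern in all 6, against which the X-linked Tlr7, Tlr8 and Tlr13 can be read. The deposited counts summed to 20424581 to 26268377 per library, where 3 counts correspond to 0.118 to 0.142 CPM. Striatal transcripts were high in GFP replicate 3 alone, with a marker sum of 1146 CPM against 188.7 to 296.2 CPM in the other libraries.

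On binding a ligand, a Toll-like receptor recruits the adaptor Myd88 or, in the case of Tlr3, Ticam1 (TRIF), while Tlr4 can use both. Kinases and ubiquitin ligases then activate NF-kappaB and interferon regulatory factors, which switch on cytokine and interferon genes. Endosomal receptors need the chaperone Unc93b1 to leave the endoplasmic reticulum, and lysosomal proteases cut several of them into their active form. In the brain most of these receptors are known from microglia, and Tlr3 also from astrocytes.

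Coordinates are those of the count table, on GRCm38. Of the endosomal receptors, Tlr7 (chrX:167304929-167330558) and Tlr8 (chrX:167242696-167264329) are neighbours on the minus strand, and Tlr13 (chrX:106143204-106160493, plus strand) lies elsewhere on the same chromosome. Tlr3 (chr8:45395665-45411080, minus strand) and Tlr9 (chr9:106222598-106226883, plus strand) stand alone. Of the surface receptors, Tlr2 (chr3:83836272-83841767, minus strand), Tlr4 (chr4:66827584-66930284, plus strand) and Tlr5 (chr1:182954788-182976044, plus strand) lie apart. No exon of another gene overlaps a member, except that of the antisense Gm45542 at Tlr3, which had 0 counts in all 6 libraries. Tlr1 (chr5:64924679-64933563) and Tlr6 (chr5:64952031-64960097) lie side by side on the minus strand and share coding sequence. Their GENCODE M21 transcripts share an unbroken identical run of 229 bases. It lies in the coding sequence of both genes, at chr5:64925537-64925765 in Tlr1 (coding bases 1468 to 1696 of 2385) and at chr5:64953828-64954056 in Tlr6 (coding bases 1507 to 1735 of 2418), in 1 exon each. It is shown because a read from inside it cannot be assigned to 1 of the 2 genes.
Tlr1 and Tlr6, shared run: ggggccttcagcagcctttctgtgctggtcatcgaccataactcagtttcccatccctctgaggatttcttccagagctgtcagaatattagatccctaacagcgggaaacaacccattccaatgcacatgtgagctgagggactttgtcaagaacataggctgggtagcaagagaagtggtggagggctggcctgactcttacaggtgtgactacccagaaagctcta
Words of 100 bases found in both genes made up 7.89% of those of Tlr1 and 7.09% of those of Tlr6. These 259 words are more than the printed run holds, so the 2 genes share other stretches of at least 100 bases too. No other pair among the 12 Tlr genes in the table shared an identical run of over 18 bases. The read length and the treatment of reads that match both genes are not given in the sources used here, so the split between Tlr1 and Tlr6 is uncertain for this stretch.

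Upstream sequence was available from RefSeq (GRCm38.p6) for 8 of the 10 members, as 10 windows of 250 bases before a transcription start. Tlr4 and Tlr7 had no entry. Windows were searched on both strands for the interferon-stimulated response element (GAAA, 2 bases of any kind, then GAAA), the shorter interferon regulatory factor site AANNGAAA (which overlaps the former), the core GAGGAA of the myeloid factor PU.1, and the NF-kappaB consensus. The response element was found in 1 of 10 windows against 2.98% of all 32851 windows, and the shorter site in 4 of 10 against 21.3%. GAGGAA was found in 4 of 10 against 23.3%, and the NF-kappaB consensus in 2 of 10 against 3.90%. Upstream stretches are shown for Tlr1, Tlr2 and Tlr13, the 3 members with an entry that passed the test of difference below, and for Tlr6, the single member with the response element. Annotated exons are left out, letters are given 5′ to 3′ on the gene's strand, and capitals mark every match.
Tlr2, chr3:83841768-83841858, minus strand: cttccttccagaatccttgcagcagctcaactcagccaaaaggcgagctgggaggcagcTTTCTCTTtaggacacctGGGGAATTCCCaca
Tlr1, chr5:64933564-64933808, minus strand: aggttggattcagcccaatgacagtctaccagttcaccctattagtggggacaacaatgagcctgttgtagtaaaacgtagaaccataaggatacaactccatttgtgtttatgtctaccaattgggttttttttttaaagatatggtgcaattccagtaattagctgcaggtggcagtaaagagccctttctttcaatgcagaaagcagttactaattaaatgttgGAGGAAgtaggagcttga
Tlr13, chrX:106143025-106143203, plus strand: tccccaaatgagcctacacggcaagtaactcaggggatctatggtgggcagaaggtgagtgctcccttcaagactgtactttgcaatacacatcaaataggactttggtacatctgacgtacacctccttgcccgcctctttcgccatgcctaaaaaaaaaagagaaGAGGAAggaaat
Tlr6, chr5:64959167-64959416, minus strand: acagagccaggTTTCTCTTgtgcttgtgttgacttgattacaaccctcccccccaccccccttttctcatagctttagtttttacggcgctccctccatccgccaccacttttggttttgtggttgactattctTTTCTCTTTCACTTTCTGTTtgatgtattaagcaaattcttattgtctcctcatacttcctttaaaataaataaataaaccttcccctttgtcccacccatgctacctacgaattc
In Tlr2 the overlapping NF-kappaB matches lay 163 and 164 bases before the RefSeq start. The annotated Tlr2 exon begins upstream of that start, at chr3:83841767, directly after the printed stretch. In Tlr6 the overlapping matches to the response element lay in an intron, upstream of the second of its annotated starts. A match is a description of letters, and Tlr6 was not among the members that passed the test below.

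Compared per length, with the deposited FPKM values (fragments scaled to transcript length and library size), Tlr3 had the highest level of the family in every library. It stood at 10.5 ± 1.82 FPKM (SD, n = 3) in the Caspase3 group and 6.92 ± 1.31 FPKM in the GFP group. Tlr7 followed at 3.15 ± 0.48 and 1.29 ± 0.18 FPKM, then Tlr13 at 2.06 ± 0.479 and 0.883 ± 0.0728 FPKM. Tlr2 and Tlr4 came next, at 1.95 ± 0.371 and 1.24 ± 0.313 FPKM in the Caspase3 group and 0.445 ± 0.0678 and 0.747 ± 0.161 FPKM in the GFP group. Their order differed between the groups: Tlr4 lay above Tlr2 in every GFP library and below it in every Caspase3 library. The highest library of Tlr9 stood at 1.31 FPKM and that of Tlr1 at 0.862 FPKM. Tlr6, Tlr8 and Tlr5 reached at most 0.463, 0.299 and 0.204 FPKM. In the order of levels over all libraries, Tlr3, Tlr7, Tlr13, Tlr2, Tlr4, Tlr9, Tlr1, Tlr6, Tlr8 and Tlr5, the ranges of Tlr3 and Tlr7 did not overlap in either group. Those of Tlr4 and Tlr9 and of Tlr8 and Tlr5 overlapped in both groups. Tlr2 and Tlr4 overlapped in the Caspase3 group and were separate in the GFP group, with Tlr4 the higher. Tlr7 and Tlr13, Tlr13 and Tlr2, Tlr9 and Tlr1, and Tlr6 and Tlr8 were separate in the GFP group and overlapped in the Caspase3 group, and Tlr1 and Tlr6 the reverse.

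All 10 members passed the filter on low counts, and all 10 had a positive log2 fold change (Caspase3 against GFP), as had 49.8% of the 16721 genes tested. Tlr1, Tlr2, Tlr7 and Tlr13 were called higher at an adjusted p under 0.05 in edgeR's quasi-likelihood fit over all genes, none was called lower, and 6 did not pass. Of all genes tested, 1.53% were called higher and 0.114% lower. The members' calls rest on the values by which the family was chosen, so they describe these libraries and test nothing. For 7 members the groups were separate in CPM, namely the 4 named and Tlr3, Tlr4 and Tlr9, with the Caspase3 group higher, against 8.96% of all genes tested. The median log2 fold change was 1.18 over the members and -0.00 over all genes tested. In bulk RNA, more cells of a type and more RNA per cell cannot be told apart.

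**Figure D1:**
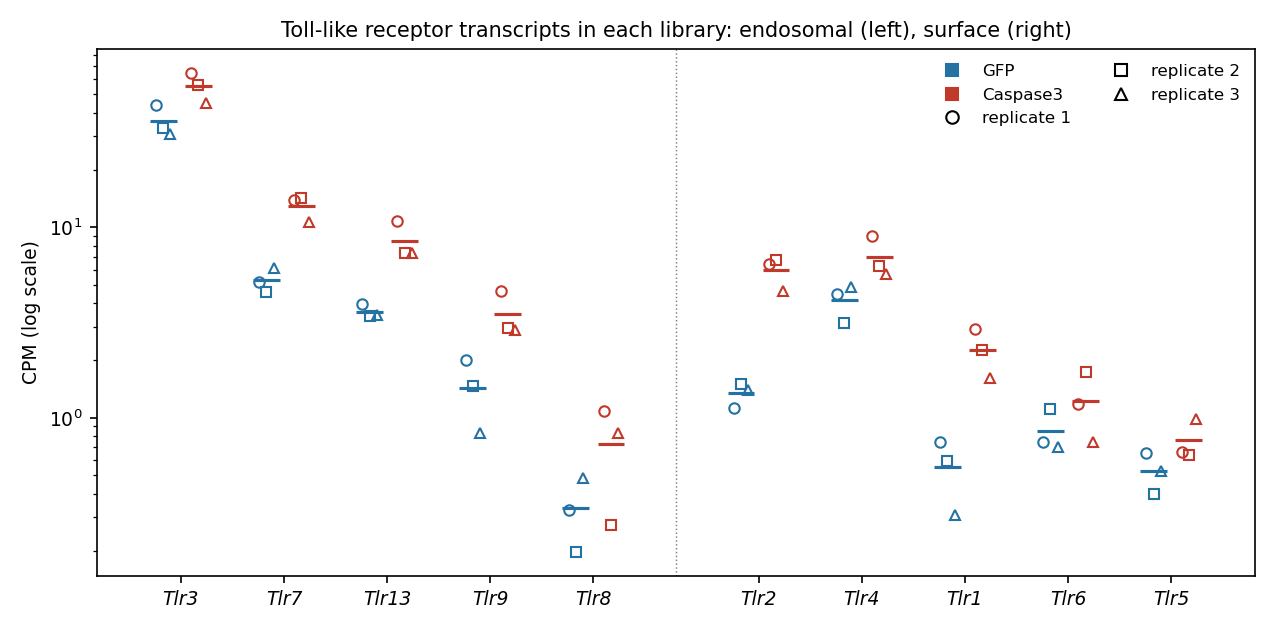
CPM of each receptor gene in each library on a log axis, endosomal receptors left and surface receptors right; symbols are the replicates and bars the group means (n = 3). The Caspase3 and GFP symbols overlap for Tlr8, Tlr6 and Tlr5 and are separate for the other 7 genes.

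Among the endosomal receptors, Tlr7, a sensor of single-stranded RNA, stood at 14.0, 14.2 and 10.7 CPM in Caspase3 replicates 1, 2 and 3 and at 5.17, 4.59 and 6.11 CPM in GFP replicates 1, 2 and 3. Every Caspase3 library lay above every GFP library. Tlr7 rose 2.45-fold, with a log2 fold change of 1.29 ± 0.17 (SE). Tlr13, which recognises bacterial ribosomal RNA, stood at 10.9, 7.32 and 7.30 CPM against 3.96, 3.41 and 3.47 CPM. It rose 2.35-fold (log2 fold change 1.23 ± 0.20), with Caspase3 replicate 1 above the other two and the GFP libraries close together.

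Tlr3, the receptor for double-stranded RNA and the most abundant of the family, stood at 64.4, 56.0 and 44.8 CPM in the Caspase3 libraries and at 43.9, 33.3 and 31.1 CPM in the GFP libraries. The lowest Caspase3 library lay just above the highest GFP library. Its log2 fold change, 0.61 ± 0.16, did not pass in the main edgeR fit. It passed in DESeq2, when genes of low count were kept, and with a block for replicate number. In these fits 1.87%, 2.1% and 2.26% of all genes with an adjusted p were called higher. Tlr9, the receptor for unmethylated CpG DNA, had 98, 65 and 73 counts in the Caspase3 libraries and 43, 37 and 19 counts in the GFP libraries, or 4.64, 2.96 and 2.88 against 2.0, 1.47 and 0.835 CPM. The log2 fold change of Tlr9 was 1.28 ± 0.34, as large as those of Tlr7 and Tlr13 but with a wider error, and it passed in these alternatives too. Tlr8, the X-linked neighbour of Tlr7, had 23, 6 and 21 counts against 7, 5 and 11 counts. Its groups overlapped through Caspase3 replicate 2, and its log2 fold change of 1.12 ± 0.55 did not pass. A Tlr8 difference of the size seen for Tlr7 was not resolved at this depth.

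Among the surface receptors, Tlr2, which binds bacterial lipopeptides as a pair with Tlr1 or Tlr6, stood at 6.44, 6.73 and 4.65 CPM in the Caspase3 libraries and at 1.12, 1.5 and 1.41 CPM in the GFP libraries. The groups were far apart relative to their spread. Tlr2 rose 4.39-fold, with a log2 fold change of 2.13 ± 0.23, the highest of the 10 members. Tlr1, its partner for triacylated lipopeptides, had 62, 50 and 41 counts in the Caspase3 libraries against 16, 15 and 7 counts in the GFP libraries, or 2.94, 2.27 and 1.62 against 0.746, 0.594 and 0.307 CPM. Tlr1 rose 4.11-fold (log2 fold change 2.04 ± 0.37), with no overlap between the groups.

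Tlr6, the other partner of Tlr2, had 25, 38 and 19 counts against 16, 28 and 16 counts. Its groups overlapped, and its log2 fold change was 0.50 ± 0.37. Tlr1 and Tlr6 share the run printed above and other stretches, so reads of either gene could have been counted for the other. How many was not tested. Tlr4, the lipopolysaccharide receptor, stood at 9.05, 6.23 and 5.68 CPM in the Caspase3 libraries and 4.47, 3.13 and 4.88 CPM in the GFP libraries. Its groups did not overlap, and its log2 fold change of 0.75 ± 0.24 did not pass in the filtered edgeR fit. Tlr4 passed when genes of low count were kept, where 2.1% of all genes were called higher. Tlr5, the flagellin receptor, had the lowest mean FPKM over all 6 libraries, though Tlr8 had fewer counts. Tlr5 had 14, 14 and 25 counts against 14, 10 and 12 counts, with overlapping groups and a log2 fold change of 0.55 ± 0.36.

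Of the other mouse Tlr genes, which are not among the 10, Tlr11 had 0 to 2 counts in each library and was not tested. Tlr12, an endosomal receptor that with Tlr11 binds a protein of the parasite Toxoplasma, had 67, 29 and 52 counts in the Caspase3 libraries against 21, 14 and 9 counts in the GFP libraries. These groups were separate, with a log2 fold change of 1.76 ± 0.43 (edgeR quasi-likelihood, adjusted p = 0.107). DESeq2 called it higher, as did the edgeR fit that kept genes of low count and the one with a replicate block. Over the alternatives the adjusted p of Tlr12 ran from 0.000343 to 0.369.

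The calls among the members depended on single libraries. Tlr2 passed when any 1 library was left out, with log2 fold changes of 2.02 to 2.27. Without GFP replicate 2 it was the 1 member that passed, where 0.0874% of all genes were called higher. Without GFP replicate 3 the members that passed were Tlr7 and Tlr2, and the share of all genes called higher was 0.767%. Tlr13 missed the threshold without either of these 2 libraries. Tlr1 passed without Caspase3 replicate 3 and missed the threshold when any other library was left out. The share of all genes called higher was 1.47%, 1.19% and 1.23% without Caspase3 replicates 1, 2 and 3 and 1.17% without GFP replicate 1. Caspase3 replicate 1 was the highest Caspase3 library for 6 of the 10 members, replicate 2 for 3 and replicate 3 for 1.

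Endosomal and surface receptors did not separate by the size of their differences. In each class 2 of 5 members passed. The median log2 fold change was 1.23 for the endosomal and 0.75 for the surface receptors, whose values ran from 0.61 to 1.29 and from 0.50 to 2.13. The mean log2 CPM of the endosomal minus that of the surface receptors was 1.45 ± 0.29 (SD, n = 3) in the Caspase3 group and 1.54 ± 0.14 in the GFP group, a difference of -0.08 that lay within the spread between libraries. Without Tlr3 it was 0.02, and without Caspase3 replicate 2 it was 0.08. The surface class thus held both the members with the highest fold changes, Tlr2 and Tlr1, and those with the lowest, Tlr6 and Tlr5.

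**Figure D2:**
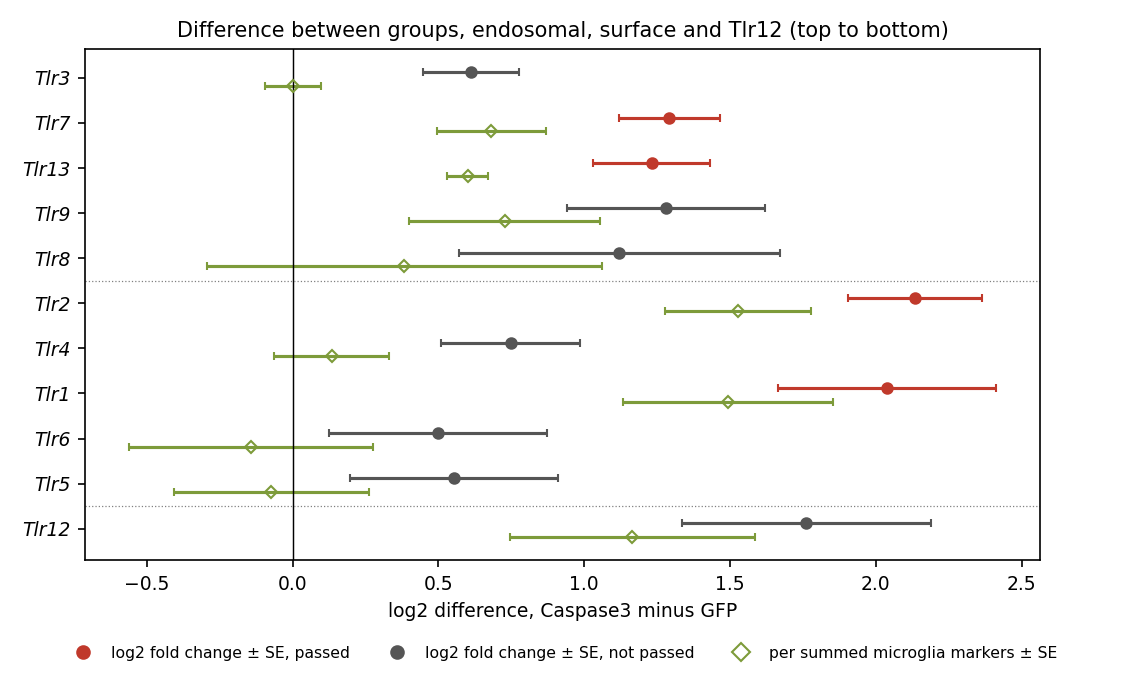
Difference between the groups on the log2 scale for each receptor gene and Tlr12; circles are edgeR log2 fold changes with their SE (red where passed), and diamonds are the same difference after each CPM is divided by the summed CPM of 14 microglia markers, with the SE from 3 libraries a group. All circles lie above 0, while the diamonds of Tlr3, Tlr4, Tlr5, Tlr6 and Tlr8 lie within 1 SE of 0 and those of Tlr2 and Tlr1 at 1.53 and 1.49.

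The make-up of the family by length-scaled level differed between the groups. Tlr3 took 49.1%, 49.8% and 49.1% of the summed FPKM of the 10 receptors in Caspase3 replicates 1, 2 and 3, and 64.5%, 61.2% and 57.2% in GFP replicates 1, 2 and 3. Its share was thus lower in every Caspase3 library, although its level was higher. Tlr2 took 9.21% ± 0.992 against 4.03% ± 1.04, and Tlr1 3.13% ± 0.365 against 1.43% ± 0.474, and for both genes the groups were separate. The share of Tlr13 was separate too, at 8.30% to 10.5% against 7.42% to 8.15%. The shares of Tlr4, Tlr5, Tlr6, Tlr7, Tlr8 and Tlr9 overlapped. The endosomal receptors together took 79.5% ± 0.888 in the Caspase3 group and 84.9% ± 1.71 in the GFP group. These groups were separate, at 78.5% to 80.3% against 83.4% to 86.7%. With Tlr3 left out of both parts of the ratio, the endosomal shares were 59.6% ± 2.07 and 61.2% ± 1.28, and the groups overlapped. The summed level was 24.7, 21.5 and 17.4 FPKM against 13.03, 10.5 and 10.4 FPKM.

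**Figure D3:**
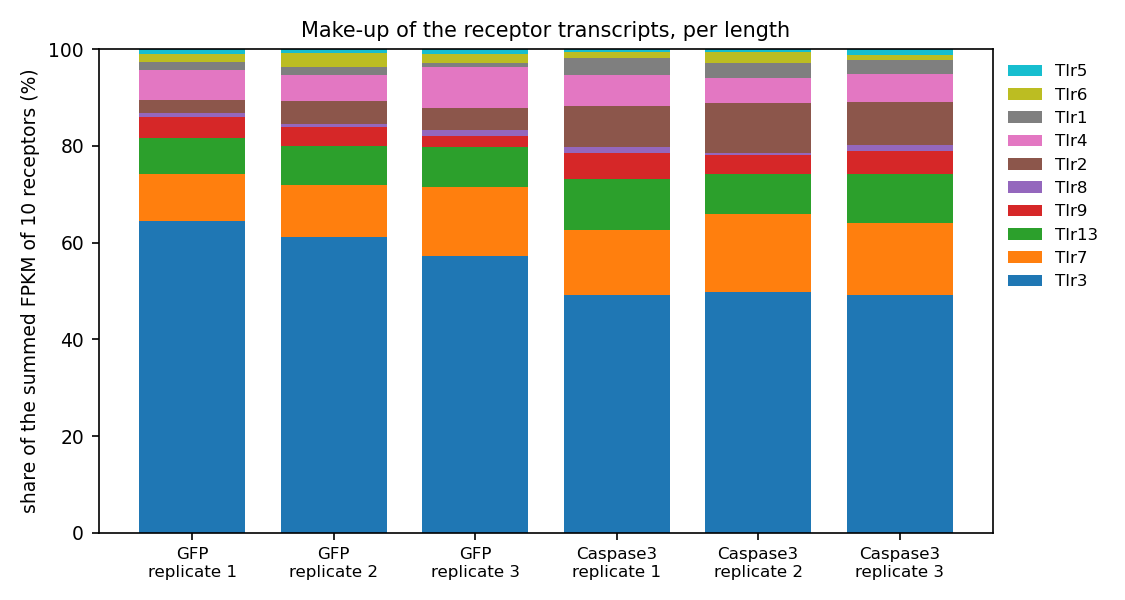
Share of each receptor gene in the summed FPKM of the 10 receptors, as stacked bars per library in percent. The lowest block, Tlr3, reaches 57.2% to 64.5% in the GFP libraries and 49.1% to 49.8% in the Caspase3 libraries.

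Markers of the cells that carry most of these receptors moved with the groups. The 14 microglia markers, among them P2ry12, Cx3cr1 and Csf1r, summed to 573.9 to 776.1 CPM in the Caspase3 libraries and 402.0 to 477.9 CPM in the GFP libraries, a 1.53-fold higher mean. Of them 5 passed as higher and none as lower, and their median log2 fold change was 0.62. Each member's CPM was therefore also divided by this sum. The log2 difference was then 1.53 for Tlr2, 1.49 for Tlr1, 0.73 for Tlr9, 0.68 for Tlr7 and 0.60 for Tlr13, with groups that did not overlap. Of all genes tested, 1.93% were separate in this way with the Caspase3 group higher. For Tlr3 it was 0.00, for Tlr4 0.13, for Tlr8 0.38, for Tlr5 -0.07 and for Tlr6 -0.14, with overlapping groups. The scaled value also moves with any change of the markers themselves.

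Other cells that carry Toll-like receptors were examined by the same kind of sum. The 10 macrophage and monocyte markers summed to 65.9 to 136.7 CPM in the Caspase3 group and 34.6 to 60.0 CPM in the GFP group. The mean of this sum was 2.16-fold higher in the Caspase3 group, and the median log2 fold change was 1.05. Of 8 tested, 1, Lyz2, passed as higher in edgeR and 3 in DESeq2, and 6 were higher at an unadjusted p under 0.05 in edgeR. The members were not divided by this sum. Of 7 neutrophil markers, 6 had at most 3 counts in any library and Ly6g had none. The sum, 7.59 to 10.02 against 2.34 to 4.05 CPM, was that of Csf3r, which passed as higher. The 7 dendritic cell markers summed to 13.3 to 13.9 against 13.6 to 15.1 CPM, and none of the 4 tested passed in edgeR or DESeq2 (1 at an unadjusted p under 0.05). Markers of T and NK cells summed to 3.94 to 7.91 against 0.673 to 4.39 CPM, and 3 of 4 tested passed as higher. Sums of the astrocyte list, at 7724 to 10215 against 8653 to 10849 CPM, and of the endothelial list, at 314.4 to 365.9 against 294.4 to 386.1 CPM, overlapped, and in the first Gfap passed as higher. So did those of the oligodendrocyte list, at 6908 to 10132 against 6056 to 7289 CPM, and of the neuron list, at 6044 to 6890 against 6464 to 9119 CPM. Of the 8 neuron genes, Gad2 alone passed, as lower. At an unadjusted p under 0.05 in edgeR, 3 of the 8 were lower and 0 higher. The Caspase3 group was separate and lower for 3 of them, and separate and higher for 0. The part of cell numbers in the receptor differences was not tested.

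Beside the receptors, 74 genes of the pathway were in the table, and 61 were tested. Of these, 8 rose and none fell in edgeR, where 1.53% of all genes tested were called higher and 0.114% lower. None of the 61 was lower at an unadjusted p under 0.05. DESeq2 called 12 higher, the same 8 with Cd14, Cd180, Slc15a3 and Slc29a3, and none lower. Over all genes with an adjusted p, it called 1.87% higher. When genes of low count were kept, edgeR called 20 higher, against 2.1% of all genes. That fit called 1 lower, Ptgs2, which had not passed in the filtered fit (log2 fold change -0.63). The lists were fixed with earlier results of these data known, so their counts and p-values describe these libraries. Among 6 accessory molecules of surface receptors, Ly86, the partner of the Tlr4 homologue Cd180, rose 2.48-fold (15.1 ± 4.23 against 6.09 ± 0.396 CPM, log2 fold change 1.31 ± 0.20, edgeR adjusted p = 0.0139). Ly86 missed the threshold without GFP replicate 2 or GFP replicate 3 (adjusted p = 0.0909 and 0.053). The lipopolysaccharide co-receptors Cd14 and Ly96 did not pass, at 3.29 ± 0.756 against 1.38 ± 0.47 CPM and 1.11 ± 0.233 against 0.811 ± 0.17 CPM. The median log2 fold change of these 6 genes was 1.28.

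Among 10 genes that move or cut endosomal receptors, 3 rose. Unc93b1, the chaperone, rose 2.25-fold, with 18.4 ± 4.45 CPM in the Caspase3 group and 8.18 ± 1.43 CPM in the GFP group (adjusted p = 0.0213). The lysosomal proteases Ctss and Lgmn rose to 225.6 ± 58.7 CPM against 70.5 ± 13.05 CPM and to 109.1 ± 19.2 CPM against 68.7 ± 3.65 CPM (1.68 ± 0.19 with adjusted p = 0.00489, and 0.67 ± 0.13 with adjusted p = 0.036, on the log2 scale). The other 7, among them the chaperones Hsp90b1 and Cnpy3, did not pass, and the list's median was 0.47. Ctss, which is also a microglial transcript, missed the threshold without GFP replicate 2 (adjusted p = 0.0562). Unc93b1 missed it without GFP replicate 2 or GFP replicate 3, and Lgmn in 4 of the 6 fits with 1 library left out (up to 0.127 and 0.144). Lgmn rose 1.59-fold, where the summed microglia markers had a 1.53-fold higher mean. Pathway genes were not divided by this sum, and the part of cell numbers in their differences was not tested.

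None of 5 adaptors and none of 15 kinases and ligases passed in edgeR, DESeq2 or limma-voom. The adaptor Myd88 stood at 5.42 ± 0.762 against 3.23 ± 0.477 CPM with separate groups (log2 fold change 0.75 ± 0.19, adjusted p = 0.131), and it passed with no filter on low counts. Ticam1, the adaptor of Tlr3, stood at 4.79 ± 0.714 against 3.66 ± 1.25 CPM (adjusted p = 0.659). Sarm1, a regulator of axon degeneration, had 20.3 ± 1.77 CPM in the Caspase3 group and 23.2 ± 1.99 CPM in the GFP group (adjusted p = 0.614). Tab2, which links ubiquitin chains to the kinase Map3k7, had a log2 fold change of 0.20 (adjusted p = 0.434). The medians of these lists were 0.39 and 0.02. At an unadjusted p under 0.05, 2 adaptors and 2 kinases or ligases were higher and none lower.

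Of 9 transcription factors, 2 rose. Irf7, which acts below Tlr7 and Tlr9, stood at 48.3, 25.7 and 14.0 CPM in the Caspase3 libraries and at 1.96, 1.47 and 1.67 CPM in the GFP libraries. It rose 17.2-fold (log2 fold change 4.11 ± 0.44, adjusted p = 0.00405). Irf8, a factor of myeloid cells, rose 2.67-fold, with 10.4 ± 2.74 CPM in the Caspase3 group and 3.88 ± 0.103 CPM in the GFP group (adjusted p = 0.00938). Both missed the threshold without GFP replicate 2 (adjusted p = 0.0562 and 0.0664). An exon of Irf7 overlaps an exon of Phrf1 on the other strand. None of 5 NF-kappaB subunits passed in edgeR, DESeq2 or limma-voom, and 2 were higher at an unadjusted p under 0.05. Nfkb2 and, of the other factors, Irf5 passed as higher when genes of low count were kept. None of 10 tested negative regulators passed with these tools either (1 at an unadjusted p under 0.05), and their median log2 fold change was 0.07. Cyld, a deubiquitinase, stood at 225.4 ± 66.9 against 240.8 ± 37.4 CPM.

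Of 18 target genes of Toll-like receptor signalling, 12 had too few counts to be tested. Among them were Tnf (6 counts over the Caspase3 libraries, 0 over the GFP libraries), Il6 (11 and 0), Il1b (20 and 15), Ifnb1 (1 and 0), Ccl2 (32 and 2), Ccl3 (24 and 1) and Ccl4 (15 and 0). When genes of low count were kept, Ccl2, Ccl3, Ccl4 and the tested Il1a (68 and 22) were called higher and Ptgs2 lower, where 2.1% of all genes were called higher. In CPM the groups were separate for 6 of the 18 with the Caspase3 group higher, and for 0 with it lower. Of all genes tested, 8.96% were separate with the Caspase3 group higher. The 2 that passed in the filtered edgeR fit were the chemokines Cxcl10 and Ccl5. Cxcl10 stood at 20.8 ± 11.6 CPM in the Caspase3 and 0.179 ± 0.13 CPM in the GFP group (6.86 ± 0.66 on the log2 scale, adjusted p = 0.00371). Ccl5 (4 counts over the GFP libraries) stood at 2.21 ± 1.30 and 0.058 ± 0.0261 CPM (5.13 ± 0.64, adjusted p = 0.00569). Neither passed without GFP replicate 2 (adjusted p = 0.0502 and 0.0585), and Cxcl10 did not pass with limma-voom. Cxcl10 had 12 counts over the GFP libraries, and without GFP replicate 1 its log2 fold change was 7.57. Cxcl10 overlaps an exon of Art3.

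**Figure D4:**
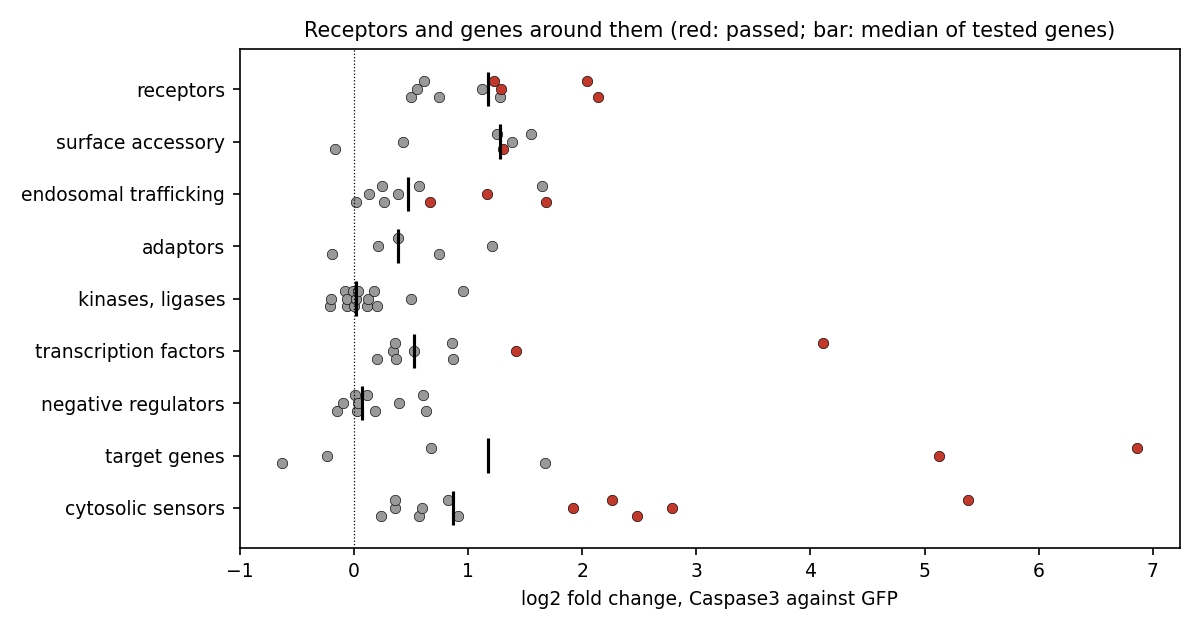
Log2 fold changes of the 10 receptor genes and of the tested genes in each list around them, with 1 circle per gene, red where passed, and a bar at the list's median. The medians of the kinase and negative regulator lists lie near 0, with circles from -0.21 to 0.96 and from -0.15 to 0.63. The highest values are those of Cxcl10, Zbp1, Ccl5 and Irf7.

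Cytosolic sensors of nucleic acids are given for comparison, since they bind ligands like those of the endosomal receptors in another place in the cell. The test called 5 of 12 higher and 0 lower in edgeR and in DESeq2 (9 and 0 at an unadjusted p under 0.05), and the list's median was 0.86 on the log2 scale. Of all genes with an adjusted p, 1.53% were called higher in edgeR and 1.87% in DESeq2. The 4 with the smallest adjusted p were Zbp1 (log2 fold change 5.38 ± 0.65), the RNA helicases Ifih1 (2.26 ± 0.29) and Ddx58 (2.48 ± 0.33) and the kinase Eif2ak2 (1.92 ± 0.28), with edgeR adjusted p of 0.00566, 0.00643, 0.00699 and 0.0102. None of these 4 passed without GFP replicate 2. Zbp1 had 8 counts over the GFP libraries, and without GFP replicate 1 its log2 fold change was 6.22. The other sensors did not reach the 4 smallest adjusted p, and 7 of the 12 did not pass. None of the 5 endosomal members had a log2 fold change over 1.29, but their median, 1.23, lay above the sensors' median of 0.86. The difference between the 2 families was not tested.

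Across the 6 libraries, the genes most like Tlr3, the endosomal member of highest mean FPKM, in log2 CPM were Tnfsf10, Scarb2 and Nod1 (Pearson r = 0.996, 0.994 and 0.987), and those most like Tlr2, the surface member of highest mean FPKM over all 6 libraries, were Syk, Cxcl13 and Tgtp1 (0.995, 0.993 and 0.992). After the group means were subtracted they were Yap1, Tmem64 and Zfp59 for Tlr3 and Setd7, Ccl27a and Grk5 for Tlr2, a different set in each case. These are the highest of 13112 genes over 6 points that share depth and group, and 96 and 95 genes reached an r of 0.95 with Tlr3 and Tlr2 before the subtraction. They describe these libraries only.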

How the data were processed

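RNA was extracted with TRIzol and sequenced as poly(A) libraries, per the labels' protocols. The authors deposited a table of whole-number read counts per gene and a table of FPKM values. Per the submitters' processing notes, HISAT2, featureCounts, DESeq2 and the builds mm10 and GRCm38 were used, with no versions or settings. Strand use and the treatment of multiply matching reads are not given in the sources used here. No column of the tables was unmapped to a sample.

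Counts were fitted with edgeR 4.0.16 (R 4.3.3; filterByExpr, TMM factors, quasi-likelihood test of Caspase3 against GFP, no covariates, Benjamini-Hochberg adjustment over all genes tested, threshold 0.05). The scripts were tested on simulated data. CPM uses TMM-scaled library sizes, and log2 CPM a prior count of 2. An exact permutation test of 3 against 3 cannot go below 0.1, so single values such as the class difference were set against their spread. Depth limits the genes with few counts. The errors of levels and shares are SDs over libraries. Those of log2 fold changes are SEs derived from the F statistic of edgeR's quasi-likelihood test.

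The members and all lists were chosen with earlier results of these data known. Named genes were all members, Gad2, up to 4 passing genes per list by adjusted p (otherwise the tested gene of highest CPM), and the 3 genes most like the member of each class with the highest mean FPKM over all libraries (mean CPM at least 1, predicted genes left out). Tlr11, Tlr12, Cd14, Ly96, Myd88, Ticam1, genes called only under an alternative, the untested cytokines and the passing marker genes were added after their values were seen. Alternatives were 3 other normalizations, DESeq2 1.42.0, limma-voom (limma 3.58.1), limma on log2(FPKM + 0.1) and log2(FPKM + 1), other filters, a replicate block and left-out libraries. Figures were drawn with Matplotlib 3.10.9. Sequences come from RefSeq (GRCm38.p6) and GENCODE M21. The result of 1 marker list is not reported here.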

Additional observations from a re-analysis of the deposited data

How the results depend on the processing

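The members kept a positive log2 fold change in every alternative fit that tested them. Relative to the summed microglia markers, which is a value with no test, Tlr5 and Tlr6 were at -0.07 and -0.14. The number of members called higher, 4, was 7 when genes of low count were kept and 6 with DESeq2. It ran from 1 to 4 with 1 library left out (1 without GFP replicate 2, 2 without GFP replicate 3). The number of pathway genes called higher, 8, became 20 (and 1 lower, Ptgs2) with no filter on low counts and ran from 0 to 9 with 1 library left out (in edgeR, 0 without GFP replicate 2, where 23 were higher and 0 lower at an unadjusted p under 0.05, and 5 without GFP replicate 3). Over all genes, 255 were called higher and 19 lower. These counts were 663 and 250 with no filter, 397 and 98 with DESeq2, 15 and 2 without GFP replicate 2 and 131 and 13 without GFP replicate 3. They were 160 and 10 with limma on log2(FPKM + 1), 252 and 33 without Caspase3 replicate 1, 209 and 7 without Caspase3 replicate 3, and 260 and 77 without Caspase3 replicate 1 and GFP replicate 3. The cause was not tested. The log2 fold change of Cyld, which did not pass, ran from -0.32 to 0.11 with 1 library left out (0.11 without Caspase3 replicate 1, 0.03 without GFP replicate 3) and was 0.25 without both of these.

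The labels number the libraries alike in both groups. Deviations of same-numbered libraries from their group means correlated at 0.0648, 0.178 and 0.0273 across genes, and not every library matched its own number best, so the numbers were not taken to pair the samples. With the replicate block, 6 members, 10 pathway genes and, over all genes, 378 higher (2.26%) and 43 lower were called. Members with few counts, Tlr5, Tlr6 and Tlr8, are limited by depth.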
